A study of Mus musculus with 8 samples.

Results

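Genes that make, break down and read out cyclic AMP were examined in the nucleus accumbens of mice given morphine or saline. They were chosen by name, through their Ensembl identifiers: the adenylyl cyclases (Adcy), the cyclic nucleotide phosphodiesterases (Pde), the catalytic and regulatory subunits of protein kinase A (PKA; Prka), the numbered A-kinase anchoring proteins (Akap), Creb1, Creb3, Creb5, Crebbp and Crem. This gave 59 of the 22337 genes in the table, 10 cyclases, 24 phosphodiesterase genes, 6 PKA subunits, 14 anchors and 5 genes of the CREB group. The series asks what chronic morphine, an opioid that acts mainly through the mu opioid receptor, does to the transcriptome of this region. There were 4 saline and 4 morphine libraries, all from this region of male mice of the strain C57BL/6, with no genetic modification named. For age, dose, route, injection schedule, the interval before dissection and pooling of animals, the sources used here give nothing.

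Cyclic AMP is a diffusible intracellular messenger made from ATP by adenylyl cyclases, which stimulatory G proteins (Gs, and Golf in striatum) switch on and most of which inhibitory G proteins hold down. Phosphodiesterases hydrolyse it. It frees the catalytic subunits of PKA from their regulatory subunits, anchors hold the kinase near its substrates, and PKA phosphorylates the transcription factor CREB at cyclic AMP response elements in promoters. In the nucleus accumbens most neurons are GABAergic projection neurons that carry D1 or D2 dopamine receptors, signal through Golf and Adcy5, and express Pde10a and Pde1b strongly. Opioid receptors couple to inhibitory G proteins, and a compensating increase of cyclase and PKA activity during long opioid exposure is a classical account of opioid dependence.

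The values were FPKM, which are per transcript length and relative to the fragments of the library, so levels of different genes can be set side by side. They summed to between 480003.6 and 540104.1 per library, with 12287 to 12655 genes at an FPKM of 1 or more. Sequencing depth is unknown, since the table holds no counts. Nothing in the labels ties the 4 libraries of a group to separate animals, and the p-values therefore reflect only how much these libraries vary, in part perhaps technically. A change is the mean difference of log2(FPKM + 1), morphine minus saline, with its standard error (SE), and it is compressed for genes with an FPKM around 1 or less. p-values are from limma, a linear model with variances moderated across genes, adjusted by Benjamini-Hochberg over all 12536 genes that reached an FPKM of 1 in at least 4 libraries.

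Saline replicate 3 stood apart from every other library. The 19 marker genes of striatal projection neurons summed to an FPKM of 5618 in it, against 1164 to 1399 in the other saline libraries and 331.9 to 491.8 with morphine. The 10 markers of cortical glutamatergic neurons summed to 55.3 in it, against 252.9 to 341.9 in the other saline and 289.2 to 360.8 in the morphine libraries. Of the striatal markers, 14 of 19 tested fell with morphine by the adjusted test (median change −2.37). Of the cortical markers 0 of 9 tested were called (median 0.54, with 7 estimates above and 2 below 0). Without saline replicate 3 the cortical marker Neurod2 passed (0.80, adjusted p = 0.0389 by limma), and no other of the 9 did. None of the listed markers of striatal or cortical neurons was at 0 in any library. Markers called lower were also found among those of astrocytes (1 of 6), endothelial cells (2 of 5), mural cells and fibroblasts (1 of 5) and ependyma or choroid plexus (1 of 4) and neuropeptide neurons of septum and hypothalamus (1 of 2), and none was called for oligodendrocytes (0 of 5) or microglia (0 of 4). Summed FPKM lay apart and lower with morphine for oligodendrocytes, at 2926 to 3303 with saline and 1824 to 2904 with morphine. All 5 of their estimates were below 0 (median −0.33). The sums were also apart for astrocytes (761.4 to 1051 and 589.8 to 748.9) and endothelial cells (113.2 to 130.2 and 80.05 to 93.11). So were those of mural cells and fibroblasts (76.73 to 125.9 and 46.93 to 60.05), while those of the remaining lists overlapped. The ependyma or choroid plexus gene called, Clic6, reached an FPKM of 1 in the saline libraries only (0.17 to 0.26 with morphine). The mitochondrially encoded share of FPKM was 9.09% to 12.6% with saline and 6.09% to 7.94% with morphine. In bulk tissue, fewer cells of a type and less RNA per cell cannot be told apart. How the region was dissected for each library is not stated in the labels, and whether saline replicate 3 holds another share of striatal and neighbouring tissue was not tested. What part these differences in markers and mitochondrial share have in the results was not tested. Results that rest on saline replicate 3 are given with and without it.

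Of the 59 genes, 42 were tested. The 17 others did not reach the filter, and 12 of them stayed under an FPKM of 1 in all 8 libraries, among them Akap4, an anchor of sperm, which was listed at 0 throughout. The others under 1 were the retinal phosphodiesterase subunits Pde6a, Pde6b, Pde6c and Pde6g, the soluble cyclase Adcy10, Akap3, Akap14, Pde3a, Pde4c, Pde5a and Creb5. Adcy4, Adcy7, Pde3b, Pde6h and Pde8a reached 1 in some libraries but in fewer than 4. Pde1c reached 1 in all 4 saline and in 3 of the 4 morphine libraries.

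No gene of the cyclic AMP group passed the adjusted threshold of 0.05 in the comparison of all 8 libraries. By limma, 0 of 42 were called, where 2.52% of all tested genes were called (316 genes, 130 higher and 186 lower with morphine). At an unadjusted p under 0.05 there were 13 of 42 (31.0%), against a background of 20.1%. Of these, 5 had higher values with morphine (11.9%, background 10.0%) and 8 had lower values (19.0%, background 10.1%). Among the 42, the same 13 genes were those in which the 4 morphine and 4 saline values did not overlap, an arrangement found in 12.7% of all tested genes, 6.56% with morphine higher and 6.10% with morphine lower. Of the genes not tested, Adcy7 and Pde8a also lay apart with morphine lower, and Pde6g with morphine higher, at an FPKM of 1.31 or less. The median change of the 42 was 0.05, beside 0.01 for all tested genes, with 22 estimates above and 20 below 0. The lower values were those of Pde10a, Pde1b, Pde1c, Pde7b, Pde8b, Adcy5, Prkar2b and Akap7, and the higher ones those of Pde1a, Pde4a, Adcy8, Prkar1a and Prkar1b.

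The list of genes past the threshold depended on saline replicate 3. Without it, 5 of 42 passed (11.9%), all lower with morphine, where 2.36% of all tested genes passed, 0.965% higher and 1.40% lower. These were Pde10a, Pde1b, Adcy5, Pde7b and Pde8b. With all 8 libraries Pde8b passed with a pseudocount of 0.1 or 0.5 in place of 1, or with mitochondrially encoded genes removed, and Pde10a with a pseudocount of 0.5 or that removal. When saline replicate 4 alone was left out, Pde8b and Pde1a passed. Without saline replicate 3 an unadjusted p under 0.05 was reached by 18 of 42 (42.9%, background 18.3%), 10 with higher values (23.8%, background 9.33%) and 8 with lower values (19.0%, background 8.98%). The library had the highest value of all 8 in 16 of the 42 genes (38.1%, background 20.7%) and the lowest in 7 (16.7%, background 19.8%). It reached at least 2 times the mean of the other saline libraries in 7 of the 42 (16.7%, background 3.20%), namely Pde10a, Pde1b, Pde1c, Adcy5, Pde7b, Pde2a and Akap5.

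**Figure D1:**
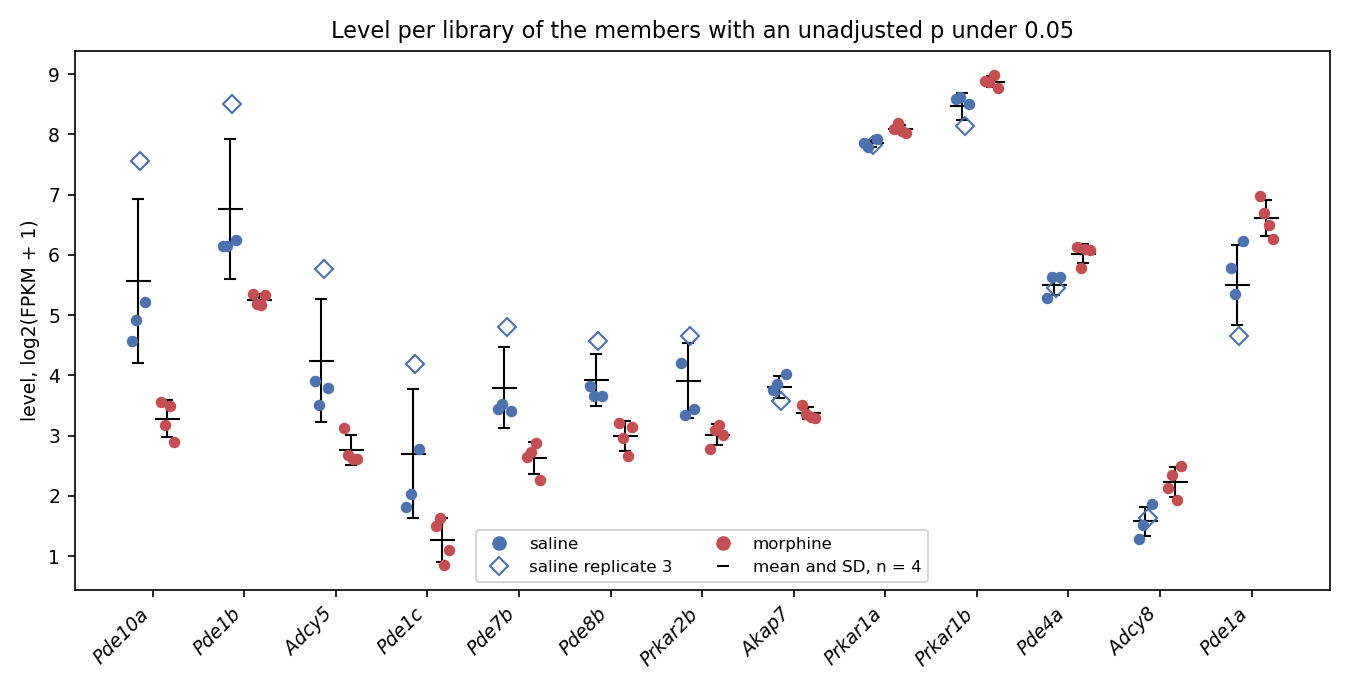
Level per library, log2(FPKM + 1), of the 13 genes with an unadjusted p under 0.05; filled blue points are saline, open diamonds saline replicate 3, red points morphine, and bars mark the mean and SD of 4 libraries. In all 13 the red points lie wholly above or wholly below the blue ones, and in Pde10a, Pde1b and Adcy5 the open diamond lies far above the other saline points.

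Because CREB acts through a short promoter motif, the sequences before the starts of these genes were searched for the cyclic AMP response element, TGACGTCA, and for its shorter form, TGACG or CGTCA on the other strand (every full element also holds the shorter form). RefSeq promoter windows on GRCm38.p6 were found for 47 of the 59 genes, 90 windows of 250 bases before a start. The full element lay in 2 windows (2.22%), those of Prkar1a and Creb5, and in 1.55% of all 32851 windows in the table. The shorter form lay in 15 windows of 13 genes (16.7%), and in 17.8% of all windows. The 4 stretches printed here belong to a PKA subunit and a phosphodiesterase with higher values under morphine, Prkar1a and Pde4a, and to the genes with the highest mean FPKM of the 8 with lower values, Pde10a and Pde1b. Letters run 5′ to 3′ on the plus strand, the gene's strand in all 4, and capitals mark TGACGTCA, TGACG or CGTCA.
Prkar1a, chr11:109650699-109650920: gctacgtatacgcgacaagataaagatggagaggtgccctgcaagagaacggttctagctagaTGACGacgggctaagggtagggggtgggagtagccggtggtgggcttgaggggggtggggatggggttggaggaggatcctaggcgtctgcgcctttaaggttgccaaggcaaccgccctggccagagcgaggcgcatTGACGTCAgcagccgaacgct
Pde4a, chr9:21183851-21184100: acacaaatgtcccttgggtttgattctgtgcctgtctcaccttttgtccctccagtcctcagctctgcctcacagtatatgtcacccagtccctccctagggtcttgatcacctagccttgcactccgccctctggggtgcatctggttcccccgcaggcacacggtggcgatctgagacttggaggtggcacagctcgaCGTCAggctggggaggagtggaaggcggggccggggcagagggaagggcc
Pde10a, chr17:8849735-8849984: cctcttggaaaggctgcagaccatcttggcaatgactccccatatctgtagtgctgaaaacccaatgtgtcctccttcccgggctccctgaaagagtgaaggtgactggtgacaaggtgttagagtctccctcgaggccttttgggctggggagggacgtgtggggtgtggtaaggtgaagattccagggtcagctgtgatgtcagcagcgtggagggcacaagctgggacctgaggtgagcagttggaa
Pde1b, chr15:103502784-103503033: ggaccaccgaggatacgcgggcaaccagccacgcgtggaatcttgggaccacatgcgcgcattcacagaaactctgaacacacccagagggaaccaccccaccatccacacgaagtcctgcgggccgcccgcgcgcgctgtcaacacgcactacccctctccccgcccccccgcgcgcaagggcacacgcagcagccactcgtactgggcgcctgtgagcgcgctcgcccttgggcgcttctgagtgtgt
The Prkar1a stretch holds the full element and a separate TGACG, and stops 29 bases before the start because the rest lies in an annotated exon. In the Pde4a stretch the motif covers the bases 50 to 46 before the start. For Prkar1a the window with the full element is printed, and for Pde4a the only window with the shorter form. Other windows of both genes held neither. The Pde10a and Pde1b stretches hold no capitals, which says only that these letters are not in these windows. Among the genes with an unadjusted p under 0.05, a grouping made after the values were seen, the shorter form lay in 6 of 18 windows of the 4 genes with higher values that have a window (Prkar1a, Prkar1b, Pde1a and Pde4a, with windows of Prkar1a that overlap), and in 0 of 19 windows of the 8 genes with lower values. Several of these genes have more than 1 start, and which starts were used here was not measured. These matches are descriptions of sequence and were not tested against the expression values.

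Among the cyclases, the form that dominates in striatal projection neurons had lower values with morphine than with saline, and a calcium-stimulated form had higher ones. Adcy5, the main cyclase downstream of D1 dopamine and A2a adenosine receptors in striatum (chr16:35154877-35305738, GRCm38), had FPKM values of 14.04, 10.44, 53.16 and 12.87 in saline replicates 1 to 4 and 7.76, 5.44, 5.12 and 5.11 in morphine replicates 1 to 4. Every morphine value was below every saline value, and saline replicate 3 was 4.27 times the mean of the other saline libraries. The means were 22.6 ± 20.4 (SD, n = 4) with saline and 5.86 ± 1.28 with morphine, a change of −1.48 ± 0.41 (SE) with an adjusted p of 0.0841 by limma. Without saline replicate 3 the change was −0.98 ± 0.17 and passed (adjusted p = 0.0200 by limma), with morphine at 0.471 times the other saline mean.

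Adcy8, a cyclase stimulated by calcium and calmodulin (chr15:64697084-64922296), had 1.45, 1.87, 2.10 and 2.65 with saline and 3.38, 4.11, 2.82 and 4.68 with morphine. The groups did not overlap, and saline replicate 3 lay within the range of the other saline values. The change was 0.65 ± 0.17 (adjusted p = 0.0758 by limma) and 0.67 ± 0.19 without that library. Adcy1, the other calmodulin-stimulated cyclase of forebrain neurons, had 8.37, 12.93, 4.97 and 10.86 with saline and 18.77, 10.58, 13.39 and 11.21 with morphine. Its groups overlapped, and saline replicate 3 was the lowest of the 8 (change 0.53 ± 0.26, adjusted p = 0.285 by limma). Adcy3, best known for olfactory and ciliary signalling, had the highest mean of the cyclases at 16.7 over the 8 libraries. Its values were 12.15, 13.00, 23.32 and 15.70 with saline and 17.45, 18.12, 18.94 and 15.27 with morphine, so that the groups overlapped (0.15 ± 0.18, adjusted p = 0.689 by limma). Adcy3 overlaps Cenpo on the opposite strand, and the strand setting of the counting is not given. The 3 remaining tested cyclases, Adcy2, Adcy6 and Adcy9, had changes within the range set by Adcy5 and Adcy8, and the median of the 7 was 0.15.

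As a share of the summed FPKM of all cyclases, Adcy5 made up 26.0%, 17.3%, 52.2% and 20.0% in saline replicates 1 to 4. With morphine it made up 10.9%, 8.77%, 8.24% and 9.17%. The sum itself was 54.1 to 64.3 in the saline libraries other than replicate 3, 101.8 in that library, and 55.7 to 70.9 with morphine, so that the sums overlapped while the shares of Adcy5 did not. Adcy3 made up 21.5% to 24.4% of the sum in the saline libraries other than replicate 3 and 24.6% to 30.5% with morphine.

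The phosphodiesterases held most of the genes with separated groups, 7 of the 14 tested (50.0%, beside the 12.7% of all tested genes). They are ordered here by the nucleotide they hydrolyse. Of the 6 tested forms that act on both cyclic AMP and cyclic GMP, 3 had lower and 1 had higher values at an unadjusted p under 0.05, with a median change of −0.75. Beside these counts, 10.1% of all tested genes had lower and 10.0% had higher values at that cut. Pde10a, a phosphodiesterase highly enriched in striatal projection neurons (chr17:8525372-8986648), had FPKM values of 22.89, 29.11, 188.24 and 36.04 with saline and 10.79, 8.06, 10.22 and 6.46 with morphine. All 4 morphine values lay below the saline range, and saline replicate 3 was 6.41 times the mean of the other saline libraries. The means were 69.1 ± 79.6 and 8.88 ± 2.00 (SD, n = 4 each), the change was −2.28 ± 0.53 and the adjusted p was 0.0519 by limma. Leaving out saline replicate 3 gave −1.62 ± 0.19, which passed (adjusted p = 0.00523 by limma), with morphine at 0.303 times the other saline mean.

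Pde1b, a calcium and calmodulin-dependent form that is abundant in striatum (chr15:103503034-103530052), had 70.18, 70.05, 361.53 and 75.28 with saline and 39.86, 35.20, 35.02 and 39.43 with morphine. Apart from saline replicate 3 the saline values lay within 70.05 to 75.28, and the morphine values lay far below them. The means were 144.3 ± 144.9 and 37.4 ± 2.63 (SD, n = 4 each), with a change of −1.51 ± 0.45 and an adjusted p of 0.0987 by limma. In the 7 libraries without saline replicate 3 the change was −0.93 ± 0.10 and passed (adjusted p = 0.00484 by limma). Pde1c, a calmodulin-dependent form that also acts on both nucleotides, had 2.51, 3.11, 17.25 and 5.85 with saline and 1.82, 2.10, 0.80 and 1.14 with morphine. Its change of −1.44 ± 0.44 did not pass with all libraries (adjusted p = 0.108 by limma) or without saline replicate 3 (−0.94 ± 0.26, adjusted p = 0.0895 by limma).

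Pde1a, the third calmodulin-dependent form (chr2:79834453-80129458), had the reverse arrangement. Its values were 53.84, 39.60, 24.19 and 73.95 with saline and 124.46, 102.65, 89.69 and 75.71 with morphine. Saline replicate 3 was its lowest library, and the highest saline value, 73.95, lay just under the lowest morphine value. The means were 47.9 ± 21.2 and 98.1 ± 20.7 (SD, n = 4 each), with a change of 1.11 ± 0.29 and an adjusted p of 0.0721 by limma. Without saline replicate 3 the change was 0.82 ± 0.21 (adjusted p = 0.0734 by limma), and without saline replicate 4 it was 1.35 and passed (adjusted p = 0.0291 by limma). Pde1a made up 42.6%, 35.1%, 6.00% and 47.7% of the summed FPKM of the 3 Pde1 genes in saline replicates 1 to 4, and 74.9%, 73.3%, 71.5% and 65.1% with morphine. The groups did not overlap in this share, also with saline replicate 3 left out.

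Pde2a, a cyclic GMP-stimulated form and the most abundant phosphodiesterase gene here (mean FPKM 130.7), had 92.10, 100.25, 256.66 and 111.35 with saline and 118.53, 124.07, 130.59 and 112.08 with morphine. Its direction turned on a single library: the change was −0.07 ± 0.27 with all 8 (adjusted p = 0.911 by limma) and 0.26 ± 0.10 without saline replicate 3 (adjusted p = 0.227 by limma). Pde11a, the sixth tested form acting on both nucleotides, stayed at an FPKM of 1.76 or less. It reached 1, and so the filter, through morphine replicates 1 to 3 and saline replicate 3 only.

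Of the 6 tested forms specific for cyclic AMP, 2 had lower and 1 had higher values at an unadjusted p under 0.05, with a median change of −0.13. The shares of all tested genes at that cut were 10.1% lower and 10.0% higher. Pde8b, a form with high affinity for cyclic AMP (chr13:95024454-95250336), had 13.14, 11.62, 22.75 and 11.66 with saline and 8.31, 6.77, 5.34 and 7.85 with morphine. All morphine values lay below the saline range, with or without saline replicate 3. The change was −0.93 ± 0.21, and its adjusted p by limma rounds to 0.05 but lay above the threshold. Without saline replicate 3 the change was −0.72 ± 0.16 and passed (adjusted p = 0.0437 by limma). Pde7b, a cyclic AMP-specific form with high striatal expression (chr10:20398004-20725078), had 9.92, 10.54, 26.94 and 9.59 with saline and 5.26, 5.64, 6.37 and 3.80 with morphine. Its saline values other than replicate 3 lay close together and above all morphine values. The change was −1.17 ± 0.29 (adjusted p = 0.0641 by limma) and −0.83 ± 0.16 without saline replicate 3, where it passed (adjusted p = 0.0311 by limma).

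Pde4a, a rolipram-sensitive form (chr9:21165714-21213248), had 37.78, 48.80, 42.99 and 48.45 with saline and 69.05, 53.94, 67.40 and 66.70 with morphine. The groups did not overlap, morphine replicate 2 was nearest to the saline values, and saline replicate 3 lay within the range of the other saline libraries. The means were 44.5 ± 5.21 and 64.3 ± 6.96 (SD, n = 4 each), with a change of 0.52 ± 0.12 and an adjusted p of 0.0518 by limma. Leaving out saline replicate 3 gave 0.51 ± 0.13 (adjusted p = 0.0727 by limma). Pde4b, the related form with the highest mean of the cyclic AMP-specific forms at 59.9, had 45.94, 60.45, 99.19 and 59.65 with saline and 52.36, 58.12, 53.20 and 50.12 with morphine. The groups overlapped, and only saline replicate 3 stood apart (−0.25 ± 0.19, adjusted p = 0.509 by limma). The other tested forms, Pde4d and Pde7a, had changes between those of Pde7b and Pde4a.

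The cyclic GMP group held 2 tested genes. Pde6d, which encodes a carrier of prenylated proteins rather than a catalytic subunit, had 42.89, 33.65, 44.11 and 34.56 with saline and 51.42, 47.31, 39.15 and 49.11 with morphine. The groups overlapped (0.27 ± 0.13, adjusted p = 0.283 by limma). Pde9a, a high-affinity cyclic GMP phosphodiesterase, ranged from 7.66 to 11.94 with saline and from 8.37 to 9.69 with morphine.

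**Figure D2:**
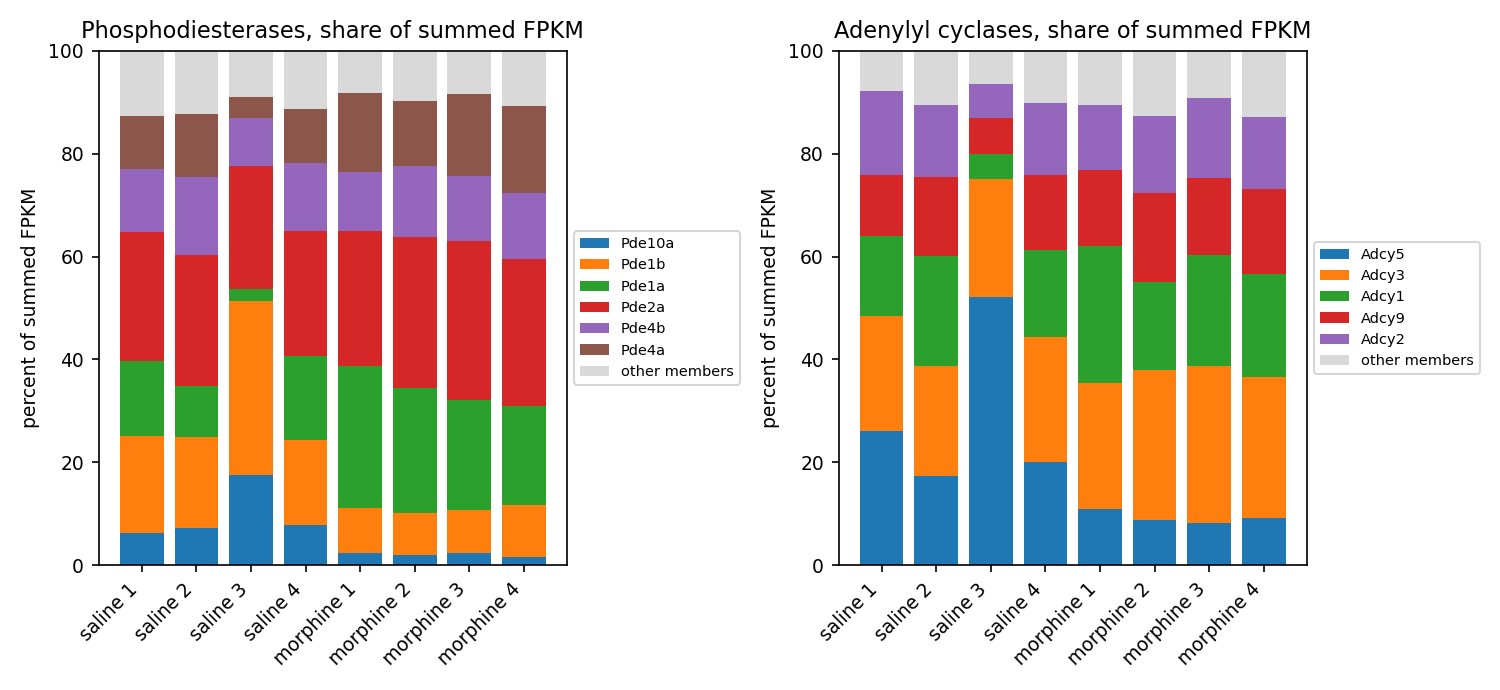
Share of summed FPKM (percent) taken by single phosphodiesterase genes (left, without the Pde6 genes) and single adenylyl cyclase genes (right) in each of the 8 libraries; each bar is 1 library. Pde10a and Pde1b take smaller and Pde1a larger shares in the 4 morphine bars than in any saline bar, and saline replicate 3 has the largest shares of Pde10a, Pde1b and Adcy5.

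Summed phosphodiesterase FPKM overlapped between the groups, while the shares of several genes did not. The sum without the Pde6 genes was 369.6 to 456.1 in the saline libraries other than replicate 3, 1068 in that library and 392.5 to 452.6 with morphine. Pde10a made up 6.19%, 7.33%, 17.6% and 7.90% of it in saline replicates 1 to 4 and 1.65% to 2.43% with morphine. For Pde1b the shares were 19.0%, 17.6%, 33.8% and 16.5% with saline and 8.32% to 10.0% with morphine. In the other direction, Pde1a took 14.6%, 9.98%, 2.26% and 16.2% with saline and 19.3% to 27.5% with morphine, and Pde4a took 10.2%, 12.3%, 4.02% and 10.6% with saline and 12.7% to 17.0% with morphine. Pde2a was the largest single component in every morphine library but morphine replicate 1, where Pde1a at 27.5% exceeded its 26.2%. These shares sum to a fixed total, so that a smaller share of some genes enlarges the others, and they were not tested.

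Of the 4 PKA regulatory subunits, which bind cyclic AMP and hold the kinase inactive, 2 had higher and 1 had lower values at an unadjusted p under 0.05, and none passed. Among all tested genes 10.0% had higher and 10.1% had lower values at that cut. Prkar1b, the neuronal type I beta subunit and the most abundant of all 59 genes (mean FPKM 412.3; chr5:139017306-139150001), had 385.37, 390.92, 281.79 and 364.12 with saline and 472.56, 465.56, 504.30 and 433.87 with morphine. All morphine values lay above all saline values, and saline replicate 3 was the lowest library. The change was 0.41 ± 0.13 (adjusted p = 0.107 by limma) and 0.30 ± 0.10 without that library (adjusted p = 0.148 by limma). Prkar1a, the type I alpha subunit whose promoter stretch with the full response element is printed, had 231.58, 220.68, 226.21 and 241.25 with saline and 271.89, 289.53, 265.07 and 259.39 with morphine. Saline replicate 3 did not stand apart for this gene, and the groups did not overlap. The change was 0.24 ± 0.09 (unadjusted p = 0.0240 and adjusted p = 0.178 by limma), with morphine at 1.18 times the saline mean.

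Prkar2b, the type II beta subunit that is prominent in striatum (chr12:31958476-32061296), had 17.47, 9.19, 24.16 and 9.85 with saline and 5.89, 7.53, 8.07 and 7.04 with morphine. The groups did not overlap, although saline replicates 2 and 4 lay near the morphine values. The change was −0.90 ± 0.26 (adjusted p = 0.0971 by limma) and −0.65 ± 0.21 without saline replicate 3 (adjusted p = 0.136 by limma). Prkar2a, the type II alpha subunit, had 4.70, 3.79, 5.28 and 4.87 with saline and 6.00, 4.58, 4.15 and 4.86 with morphine, and its groups overlapped (0.06 ± 0.14, adjusted p = 0.865 by limma). The type II subunits together made up 3.47%, 2.08%, 5.48% and 2.37% of the summed regulatory subunit FPKM with saline and 1.56% to 1.69% with morphine. That sum was 620.1 to 639.1 in the saline libraries other than replicate 3, 537.4 in that library and 705.2 to 781.6 with morphine.

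The catalytic subunits, which phosphorylate the substrates, showed no separation of the groups. Prkaca had 33.85, 28.26, 23.74 and 28.26 with saline and 40.26, 26.39, 32.35 and 30.85 with morphine (0.18 ± 0.15, adjusted p = 0.548 by limma). Prkacb had 74.72, 61.03, 108.11 and 74.18 with saline and 66.20, 68.17, 54.91 and 67.66 with morphine (−0.28 ± 0.16, adjusted p = 0.371 by limma). Summed catalytic subunit FPKM was 89.3 to 108.6 in the saline libraries other than replicate 3, 131.8 in that library and 87.3 to 106.5 with morphine. At these values a difference between the groups was not detectable, which does not show that the levels were equal.

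Of the 11 tested anchors, 1 had separated groups, beside 12.7% of all tested genes. The median change of the anchors was −0.16 (range −0.50 to 0.69). Akap7, whose short forms tether PKA to membranes and calcium channels (chr10:25169090-25307870), had 12.61, 13.54, 10.92 and 15.25 with saline and 10.44, 9.27, 8.95 and 8.81 with morphine. Of the 8 genes with lower values it was the only one in which saline replicate 3 was the lowest and not the highest saline library. The change was −0.44 ± 0.13 (adjusted p = 0.0937 by limma) and −0.51 ± 0.12 without that library (adjusted p = 0.0597 by limma). Akap5, the postsynaptic anchor of PKA, calcineurin and protein kinase C, had 9.75, 12.11, 30.44 and 14.30 with saline and 11.08, 13.85, 11.69 and 6.55 with morphine, with overlapping groups (−0.50 ± 0.32, adjusted p = 0.416 by limma). Akap6, an anchor at the nuclear envelope and the most abundant of the group (mean FPKM 29.3), had 21.41, 27.62, 32.64 and 32.74 with saline and 29.84, 34.35, 28.87 and 26.51 with morphine, also overlapping (0.07 ± 0.15, adjusted p = 0.820 by limma). At the upper end stood Akap13, an anchor that is also a guanine nucleotide exchange factor, at 0.69 ± 0.31 (unadjusted p = 0.0514 by limma), with saline replicate 3 at 0.395 times the mean of the other saline libraries.

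The CREB group had 4 tested genes, all with small estimates above 0 (0.13 to 0.27) and overlapping groups. Creb1, the cyclic AMP response element binding protein itself, had 7.49, 8.75, 10.54 and 8.96 with saline and 9.85, 11.29, 10.36 and 12.45 with morphine (0.27 ± 0.13, adjusted p = 0.275 by limma). Its coactivator Crebbp, a histone acetyltransferase, had 7.73, 9.53, 8.56 and 9.46 with saline and 12.73, 6.65, 13.28 and 10.63 with morphine (0.23 ± 0.19, adjusted p = 0.541 by limma). Crem, whose short products repress the same elements, had 16.40, 16.37, 12.39 and 21.58 with saline and 19.25, 23.45, 16.95 and 19.44 with morphine (0.25 ± 0.16, adjusted p = 0.432 by limma). Gene-level FPKM cannot separate the activating and repressing products of Crem. Creb3, a membrane-bound relative, had 39.90, 38.37, 37.57 and 34.96 with saline and 44.11, 44.77, 36.83 and 40.12 with morphine (0.13 ± 0.10, adjusted p = 0.508 by limma). It overlaps Tln1 and Gba2 on the opposite strand. Phosphorylation, through which PKA acts on CREB, is not measured by RNA levels.

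**Figure D3:**
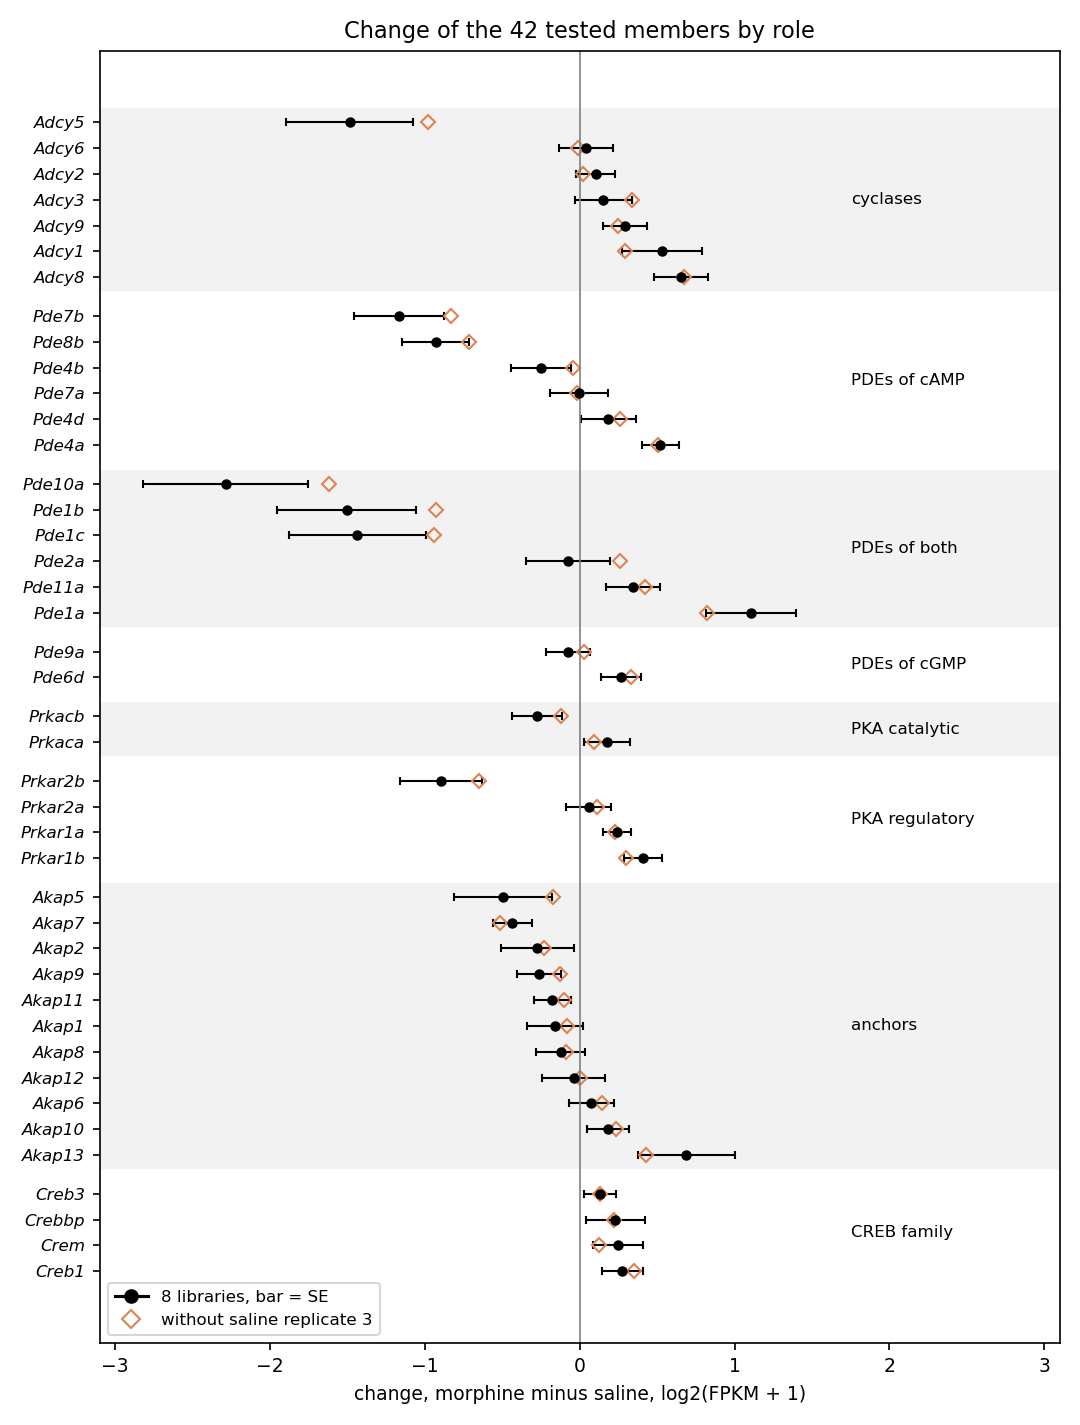
Change with morphine, log2(FPKM + 1), of the 42 tested genes, grouped by role; black points are the estimates from 8 libraries with SE bars, and open diamonds are the estimates without saline replicate 3. The widest spread is among the phosphodiesterases and cyclases, from −2.28 for Pde10a to 1.11 for Pde1a, and the CREB group lies between 0.13 and 0.27.

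The 8 genes with lower values were set beside the striatal markers, since 7 of them were also highest in saline replicate 3, the library with the largest sum of those markers. The ratio of saline replicate 3 to the other saline mean was 6.41 for Pde10a, 5.03 for Pde1b, 4.51 for Pde1c, 4.27 for Adcy5, 2.69 for Pde7b, 1.99 for Prkar2b and 1.87 for Pde8b. The ratios of the morphine mean to the same 3 libraries were 0.303, 0.520, 0.383, 0.471, 0.526, 0.586 and 0.582 in that order. Akap7 was the exception among the 8. Pde2a and Akap5 were also high in saline replicate 3 (2.54 and 2.53 times), but with morphine stood at 1.20 and 0.895 times the other saline mean. Both ratios use the same saline libraries, so no correlation is given between them.

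**Figure D4:**
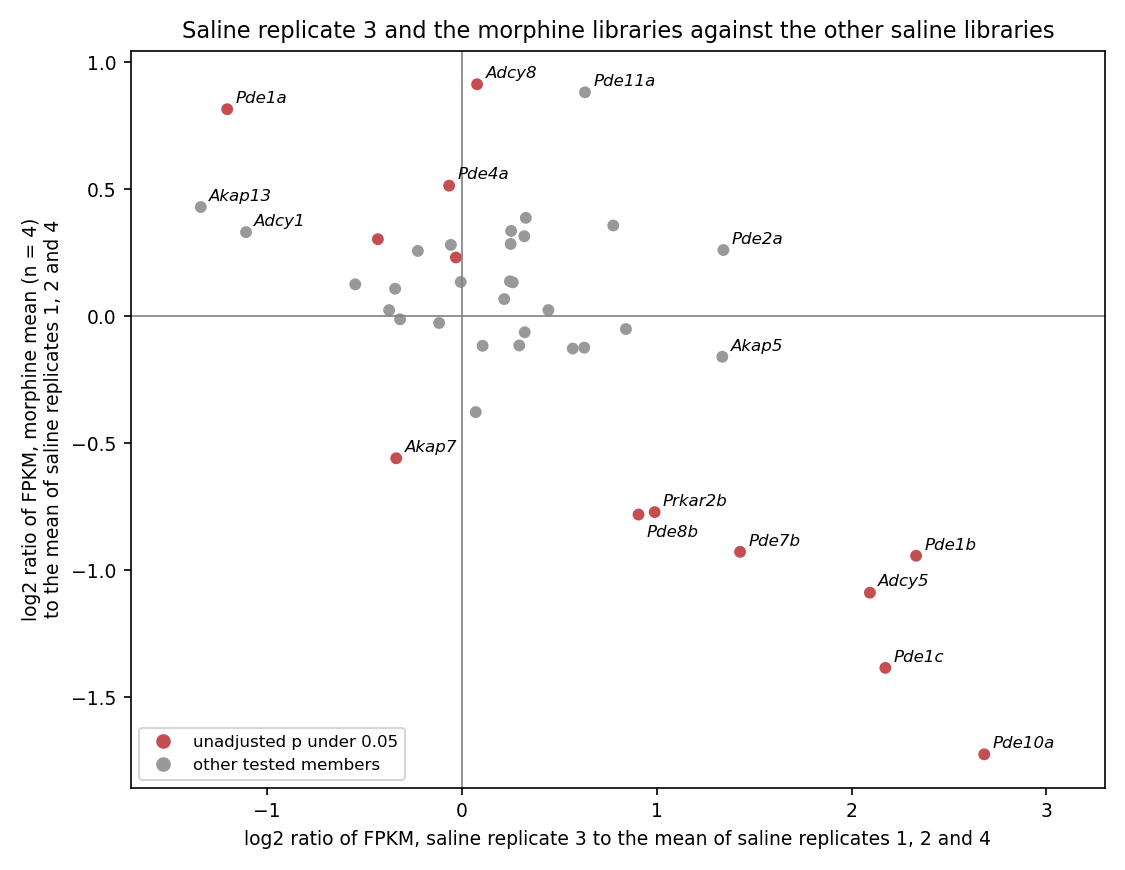
For each tested gene, the log2 ratio of FPKM in saline replicate 3 (x axis) and of the morphine mean (y axis) to the mean of saline replicates 1, 2 and 4; red points have an unadjusted p under 0.05 with all 8 libraries. Both axes share their denominator. Pde10a, Pde1c, Adcy5, Pde1b, Pde7b, Prkar2b and Pde8b lie at the lower right, Pde2a and Akap5 lie near the middle in height, and Pde1a, Akap13 and Adcy1 lie at the upper left.

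With the mean log2 level of the 19 striatal markers in each library as a covariate, 0 of 42 genes passed by limma. Few of all tested genes passed in this fit, with the count given among the alternatives below. The estimates of 7 of the 8 lower genes were then above 0: 0.50 ± 0.37 for Pde10a, 0.88 ± 0.26 for Pde1b, 0.79 ± 0.39 for Pde1c, 0.70 ± 0.24 for Adcy5, 0.17 ± 0.34 for Pde7b, 0.03 ± 0.26 for Pde8b and 0.02 ± 0.42 for Prkar2b. Akap7 stayed below 0 in this fit, at −0.68 ± 0.24. Pde4a, Adcy8 and Prkar1a were little moved, at 0.47 ± 0.24, 0.77 ± 0.35 and 0.23 ± 0.18, while Pde1a was at 0.19 ± 0.48 and Prkar1b at −0.04 ± 0.19. The marker mean was 4.59 to 4.91 in the saline libraries other than replicate 3, 6.89 in that library and 2.66 to 3.31 with morphine. Since it does not overlap between the groups, it and the treatment cannot be told apart in this fit. With saline replicate 3 also left out, an alternative chosen after seeing the data, 0 of 42 and 0 of all tested genes passed by limma. The errors were larger. The estimates for the 8 genes were then −0.64 ± 0.87 for Pde10a, −0.51 ± 0.48 for Pde1b, −1.04 ± 0.78 for Pde7b and −1.49 ± 0.95 for Prkar2b, and above 0 for Pde1c (1.37 ± 0.99), Adcy5 (0.53 ± 0.65), Pde8b (0.26 ± 0.68) and Akap7 (0.18 ± 0.57). Pde1a was at 3.09 ± 0.69 (unadjusted p = 0.00123 and adjusted p = 0.224 by limma). Other genes, with estimates of either sign, also had an unadjusted p under 0.05 by limma in this fit, Akap13 (2.65 ± 1.04) among them. The covariate list was chosen with earlier results of these data known.

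Other genes of cyclic AMP and cyclic GMP signalling were read from the same fit, 56 genes of which 51 were tested. By the adjusted test 1 fell and 0 rose, beside 1.48% and 1.04% of all tested genes, and 12 had an unadjusted p under 0.05 (23.5%, background 20.1%), 5 higher (9.80%, background 10.0%) and 7 lower (13.7%, background 10.1%). The gene that fell was Ppp1r1b, which encodes DARPP-32, the PKA-controlled inhibitor of protein phosphatase 1 and also a gene of the striatal marker list. It had 318.16, 340.97, 1454.60 and 321.65 with saline and 118.07, 64.63, 72.79 and 65.05 with morphine (−2.60 ± 0.44, adjusted p = 0.0247 by limma). Gnal, which encodes the Golf alpha subunit that activates Adcy5 in striatum, had 66.32, 68.99, 162.94 and 69.80 with saline and 38.99, 54.68, 44.89 and 38.05 with morphine (−0.94 ± 0.26, adjusted p = 0.0874 by limma). Gucy1a1, a subunit of the nitric oxide receptor that makes cyclic GMP, had 18.73, 22.13, 66.21 and 21.88 with saline and 9.11, 11.86, 7.78 and 12.38 with morphine (−1.38 ± 0.34, adjusted p = 0.0617 by limma). Both were highest in saline replicate 3 and had separated groups.

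Ezr, which encodes ezrin, an anchor of PKA at the actin cortex, had 44.21, 48.73, 32.17 and 46.56 with saline and 23.91, 33.10, 28.44 and 26.06 with morphine (−0.60 ± 0.15, adjusted p = 0.0646 by limma), and its groups overlapped through saline replicate 3. Prkg2, a cyclic GMP-dependent kinase, had 1.96, 1.76, 1.33 and 1.63 with saline and 2.41, 2.60, 2.89 and 2.72 with morphine (0.46 ± 0.13, adjusted p = 0.0925 by limma). Without saline replicate 3, 4 of the 51 tested other pathway genes passed, all lower, beside 2.36% of all tested genes (1.40% lower). They were Ppp1r1b, Gucy1a1 (−0.98, adjusted p = 0.0197 by limma), Ezr (−0.73, adjusted p = 0.0197 by limma) and Gnal (−0.63, adjusted p = 0.0385 by limma).

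Of the genes that the table's own KEGG annotation assigns to cyclic AMP signalling, a list added after the values were seen, 154 were tested and 11 passed (7.14%, beside 2.52% of all tested genes), none of them among the 42. Among those that fell were the receptors Drd1, Adora2a and Htr4, the kinase Akt2 and Ppp1r1b. Drd1, Adora2a and Ppp1r1b are also in the striatal marker list, so these calls are counted in both lists. Those that rose were the immediate early genes Fos and Jun, the receptors Oxtr and Sstr2 and the calcium pump Atp2b4. Fos, a gene with response elements for CREB, had 13.46, 14.16, 25.38 and 20.92 with saline and 40.30, 45.61, 43.50 and 37.42 with morphine (1.17 ± 0.19, adjusted p = 0.0207 by limma). Of the KEGG genes for morphine addiction 79 were tested, 21 of them cyclases, phosphodiesterases or PKA subunits, and 4 passed (5.06%, beside 2.52%), among them Drd1 and Gabrd lower and Kcnj9 higher, again none among the 42. All calls over the 8 libraries given here, those of Ppp1r1b, of the marker genes and of the KEGG genes included, were lost without morphine replicate 3, morphine replicate 4 or saline replicate 2, where limma called 0 genes in the whole table. The calls of Akt2, Atp2b4 and Sstr2 were lost without saline replicate 3 as well (adjusted p = 0.0573, 0.0597 and 0.0632 by limma).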

How the data were processed

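The authors deposited 1 table of FPKM values, per the file headers with 1 column for each of the 8 libraries and with gene annotation. Per the labels' protocols, cDNA was made from oligo-dT primed total RNA by template switching and amplified by PCR, with no molecular identifiers or strand marking named. The build mm10 and the tools StringTie 1.3.1, RSEM, HISAT2, Bowtie2 2.2.8 and fastp 0.18.0 are named per the submitters' processing notes. The sources used here give neither their roles nor the annotation or the strand setting.

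Gene names and coordinates (1-based) came from GENCODE M21 on GRCm38 by Ensembl identifier (22232 of 22337 genes matched, 105 did not), and promoter windows from RefSeq on GRCm38.p6. Groups were taken from the labels' treatment. Values were taken as log2(FPKM + 1), with a pseudocount of 1, and the 12536 genes that reached 1 FPKM in 4 or more libraries were fitted with limma 3.58.1 in R 4.3.3 (mean-variance trend, two-sided, adjusted p under 0.05), without a replicate block. FPKM holds no counts, so no counting interval is given. The fit was tested on simulated data (12536 genes, 200 changed, 10 runs). In those runs it found 76.7% of changes of 1 and 97.2% of changes of 2 (log2), and 5.38% of its calls were false. Whether these rates hold for the libraries measured here, among which saline replicate 3 stood apart, was not tested.

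The genes, the marker lists and the list of other pathway genes were chosen with earlier results of these data known. Named in full were the genes called, those with an unadjusted p under 0.05, the most abundant gene of each role and 16 genes chosen by function whatever their outcome (27 in all), plus the other pathway genes called and the 4 of these with the smallest p. Fos, Akap9, Neurod2, Clic6 and the KEGG genes were named after their values were seen. Some KEGG genes called are not reported here. Alternatives covered the pseudocount, the filter, the variance trend, the scaling, a replicate block, a marker covariate and leaving out each library.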

Additional observations from a re-analysis of the deposited data

Results flagged for a closer look

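Among 84 groups of 4 values (42 genes in each treatment group), 6 held a library far from the other 3 of its group relative to their range, where chance gives about 1 in 20 groups. In saline replicate 3 these were Pde1b at an FPKM of 361.53, Pde7b at 26.94 and Akap9, a centrosomal and Golgi anchor, at 36.85, each the highest of its group. The other 3 were in the morphine group: Prkacb at 54.91 in replicate 3 and Pde4a at 53.94 in replicate 2, both the lowest, and Adcy5 at 7.76 in replicate 1, the highest. The Pde4a and Adcy5 values still lay outside the saline range.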

How the results depend on the processing

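The libraries are few, read depth is unknown, and the number of genes called depended on single libraries. Over all genes, 316 were called (130 higher, 186 lower); the count was 17 with no filter on low values, 5 with a replicate block, 6 with the striatal marker covariate, 0 with that covariate and saline replicate 3 left out (chosen after seeing the data), and 0 to 450 when each library was left out, at 0 without morphine replicate 3, morphine replicate 4 or saline replicate 2 (1953, 2136 and 2005 at an unadjusted p under 0.05 by limma). Removing mitochondrially encoded genes gave 74 higher and 272 lower. Of the cyclic AMP genes, 0 were called; the count was 1 with a pseudocount of 0.1 (Pde8b), 2 with 0.5 (Pde8b and Pde10a), 2 with mitochondrially encoded genes removed (Pde8b and Pde10a), and 0 to 5 leaving out each library, with 5 without saline replicate 3 and 2 without saline replicate 4 (Pde8b and Pde1a). Over all settings 6 genes were ever called: Pde10a, Pde1b, Pde7b, Pde8b, Pde1a and Adcy5. The median change of the tested cyclic AMP genes moved to 0.51 with the covariate and saline replicate 3 left out, and stayed between −0.04 and 0.29 elsewhere. Of the other pathway genes, where 1 was called, the count was 0 with no filter, with the replicate block, with the covariate and with the covariate and 7 libraries, 2 with mitochondrially encoded genes removed (Gucy1a1 and Ppp1r1b), and 0 to 4 leaving out each library.

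The labels do not say whether the replicate numbers pair the libraries. The deviations of same-numbered libraries correlated at 0.05, 0.04, −0.06 and −0.20 over genes, and those of other pairs at −0.086 to 0.115. Weak correlations of this kind cannot decide whether same-numbered libraries were handled together. With the replicate block Ppp1r1b had an adjusted p of 0.0537 by limma, and 0 of the cyclic AMP genes were called.

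For the genes given with every library's value, the sign turned with the striatal covariate for Adcy1 (−0.33), Adcy5 (0.70), Akap5 (0.87), Crem (−0.19), Gnal (0.29), Gucy1a1 (0.27), Pde10a (0.50), Pde1b (0.88), Pde1c (0.79), Pde2a (1.28), Pde4b (0.60), Pde7b (0.17), Pde8b (0.028), Prkaca (−0.085), Prkacb (0.42), Prkar1b (−0.043) and Prkar2b (0.021). With saline replicate 3 also left out it turned for Adcy5 (0.53), Akap5 (0.58), Akap7 (0.18), Pde1c (1.37), Pde2a (0.27), Pde4b (0.023), Pde8b (0.26), Prkacb (0.59) and Prkg2 (−0.12). Leaving out each library, the change of Akap6 ran from −0.053 to 0.14 (below 0 without saline replicate 1), that of Pde2a from −0.23 to 0.26 (above 0 without saline replicate 3) and that of Prkar2a from −0.029 to 0.12 (below 0 without saline replicate 2, at −0.021, or morphine replicate 1). Of the genes mentioned more briefly, it turned with the covariate for Adcy2 (−0.23), Adcy6 (−0.076), Akap9 (0.35), Akap13 (−0.15), Pde9a (0.36), Neurod2 (−0.78) and Adora2a (0.36). With saline replicate 3 also left out it turned for Akap9 (0.43), Pde4d (−0.36), Pde7a (0.018), Pde9a (0.26), Adora2a (1.88) and Drd1 (0.64). Leaving out single libraries turned it for Adcy6, Pde7a and Pde9a. Adora2a and Drd1 belong to the marker list whose mean is the covariate, so their estimates in these fits are in part set by the list. The cause was not tested. No sign turned under the pseudocounts, filters or scalings tried for the genes given with every library's value.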
